A study of Oryctolagus cuniculus with 24 samples.

Results

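The cytosolic ribosomal proteins are the protein parts of the ribosome that translates nuclear-encoded mRNAs. Their genes were taken by symbol, as those that start with RPL or RPS and a digit, together with RPLP0, RPLP1, RPLP2 and RPSA, and without the RPS6K kinases. The rabbit array measured 28920 genes, and 12 genes chosen by this rule are described, through 31 of 42089 probes. The gene table of the rabbit genome lists 84 genes that meet it, so that the results below concern these 12 members and not the whole ribosome. They were RPL4, RPL14, RPL18, RPL23, RPL35A, RPL36AL, RPL37A and RPLP1 of the large subunit, and RPS12, RPS13, RPS20 and RPS25 of the small subunit.

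PBMCs, the mononuclear cells of blood, were prepared on a density gradient from the blood of 4 New Zealand White rabbits, all adult females. The labels number them 1, 2, 4 and 5. Cells of each rabbit were mock-stimulated with buffer alone, stimulated with LPS at 1 µg/mL, or stimulated with PMA at 10 ng/mL plus ionomycin at 1 µg/mL (PMA-Ionomycin), and were harvested after 4 h (T4) or 24 h (T24). This gave 6 groups of 4 arrays, with every rabbit in every group. LPS is a bacterial cell wall component sensed mainly by monocytes and B cells, whereas PMA activates protein kinase C and ionomycin lets calcium into the cell, a combination that activates lymphocytes without their antigen receptor.

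Each ribosome holds a large and a small subunit, and each subunit is an rRNA scaffold covered by ribosomal proteins, nearly all present in a single copy. Vertebrate mRNAs of these proteins begin with a terminal oligopyrimidine (TOP) tract, through which their translation is controlled together by mTOR signalling. A lymphocyte that leaves its resting state enlarges its ribosome pool before it divides, and the ribosomal protein mRNAs are among the most abundant mRNAs of resting cells already.

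The probes are 60 bases long, and where each one lies on its mRNA differs between the genes. The sequences of 8 of the 12 genes are shown, so that the place of the mRNA from which each value was read can be seen. In the first 5 the stop codon is in capitals, and the probe reads the end of the coding sequence and, except for RPLP1, some bases behind it. The probe of RPL36AL lies at chr17:68775882-68775941 on the minus strand, that of RPL35A at chr14:93171834-93171893 on the plus strand, that of RPL23 at chr19:40300616-40300675 on the minus strand and that of RPS12 at chr12:123077349-123077408 on the plus strand of oryCun2, the build named in the file headers. No position is given in the files for RPLP1.
RPLP1: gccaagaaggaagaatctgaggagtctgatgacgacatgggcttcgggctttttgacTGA
RPL36AL: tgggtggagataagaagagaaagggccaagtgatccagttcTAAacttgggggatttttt
RPL35A: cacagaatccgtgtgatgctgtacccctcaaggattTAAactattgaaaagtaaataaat
RPL23: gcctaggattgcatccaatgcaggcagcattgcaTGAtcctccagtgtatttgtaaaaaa
RPS12: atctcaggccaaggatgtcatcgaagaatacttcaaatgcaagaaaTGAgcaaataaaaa

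The next 3 probes read coding sequence alone, with no stop codon marked. The probe of RPL14 lies at chr9:3478013-3478072 on the minus strand. That of RPL4 is placed at chr17:5900235-5900500 on the plus strand, a span longer than the probe itself. The upstream probe of RPS25 lies at chr3:38955838-38955897 on the plus strand.
RPL14: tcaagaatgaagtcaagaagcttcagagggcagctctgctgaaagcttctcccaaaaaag
RPL4: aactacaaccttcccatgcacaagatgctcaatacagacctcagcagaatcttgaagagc
RPS25: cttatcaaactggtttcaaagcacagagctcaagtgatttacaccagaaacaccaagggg

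The remaining genes were RPL18, RPS20, RPL37A and RPS13. The probe of RPL37A lies at chr7:157932082-157932141 on the plus strand. RPS20 is on the minus strand of chromosome 3, at chr3:71607726-71607788. The RPS13 probe is written on the strand opposite to the coding sequence. It has 0 open reading frames as printed on the array and 1 on its reverse complement, whereas the other probes within coding sequence have an open frame as printed. Its values are given because the rule names it, and whether it reads the RPS13 mRNA was not tested. The accessions listed for the RPL23 probes name RPL23 and a further gene without a symbol. Ribosomal protein genes have many processed copies in mammalian genomes, and RPL36AL has the paralog RPL36A, whose protein is nearly identical. Signal from such copies was not tested.

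A level below is the log2 median signal of the spot minus the median of the array, averaged over the probes of the gene, so it is a relative level on a log2 scale. All 31 probes were well above background on all 24 arrays, and none was saturated. Levels of different genes were not set against each other, since each probe has its own brightness. Per array, 51.4 to 62.3% of spots were well above background. The lowest share belonged to LPS at T4 of rabbit 4, whose array median signal of 59 was also the lowest. Marker genes of monocytes (9 of 15 listed genes measured), B cells (6 of 10) and T cells (9 of 12) were present. Every measured marker of these lists was well above background on at least 1 array of the mock-stimulated group at T24. This did not hold in all groups. In the mock group at T4, 2 T cell markers and 1 monocyte marker were well above background on no array. In the PMA-Ionomycin group at T24, 2 T cell and 2 monocyte markers were. Of the 5 genes in the NK cell list PRF1 alone was measured.

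**Figure D1:**
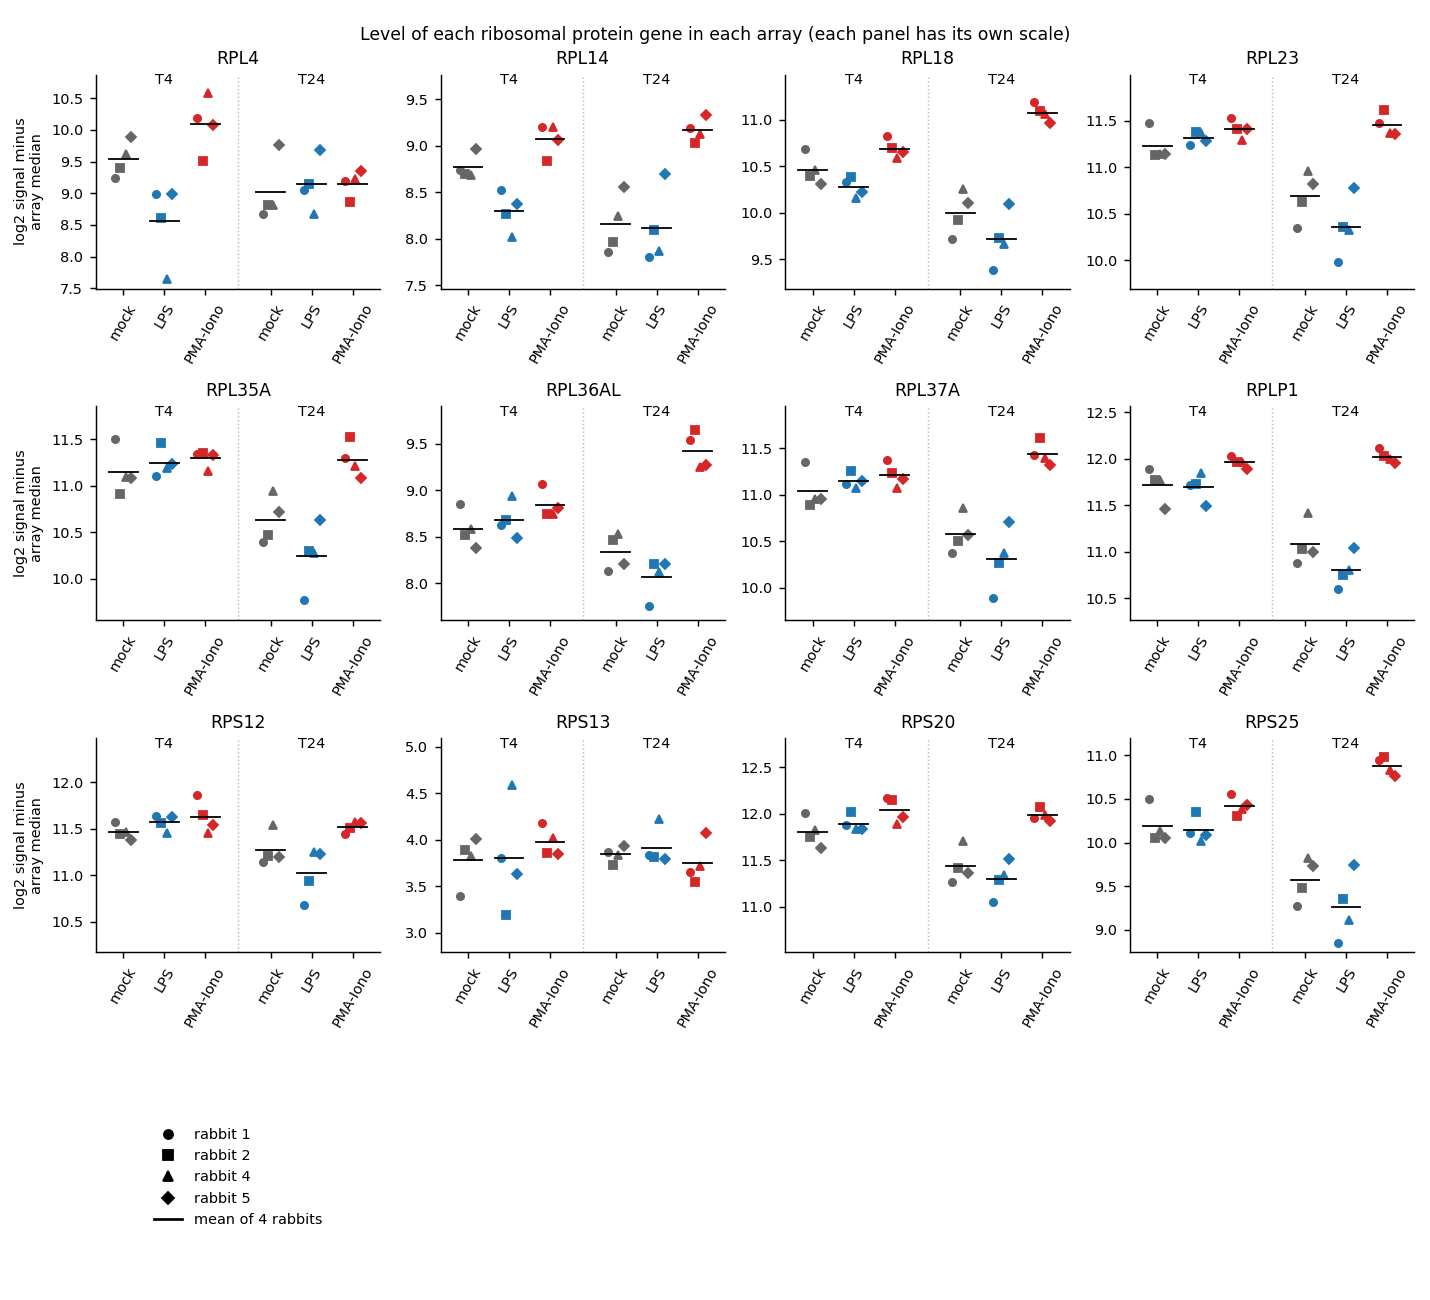
Level of each of the 12 ribosomal protein genes in each of the 24 arrays, as log2 signal minus the array median, with a marker per rabbit and a line at the mean of 4 rabbits. Each panel has its own vertical range. In 9 genes the PMA-Ionomycin arrays at T24 lie above all mock arrays of that time, as they do in 21.2% of all genes.

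In mock-stimulated PBMCs, 8 of the 12 ribosomal protein genes fell from T4 to T24 and none rose (66.7% of the genes, where 5.13% of all genes were called lower, 7.42% higher and 12.6% in either direction). The median log2 FC over the 12 genes was -0.49, and -0.06 over all genes. RPLP1, an acidic protein of the stalk that recruits elongation factors, fell by 0.64 (SE 0.12, FC 1.56, limma, adjusted p = 0.00076). Its levels at T4 were 11.88, 11.77, 11.77 and 11.45 in rabbits 1, 2, 4 and 5, and at T24 they were 10.88, 11.03, 11.42 and 10.99. The highest array at T24 was still below the lowest at T4.

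RPS25, a protein of the small subunit head, fell by 0.61 (SE 0.16, adjusted p = 0.00959), from 10.50, 10.05, 10.14 and 10.06 to 9.28, 9.48, 9.82 and 9.73. RPL14 fell by 0.61 (SE 0.17, adjusted p = 0.0192), RPL23 by 0.53 (SE 0.14, adjusted p = 0.013) and RPL35A by 0.52 (SE 0.16, adjusted p = 0.0357). All 3 are large subunit proteins, and each was lower at T24 in 4 of 4 rabbits. RPL18, RPL37A and RPS20 also fell, with log2 FC of -0.46, -0.47 and -0.37 (adjusted p = 0.023, 0.0339 and 0.0371). Their calls were lost in 7, 10 and 12 of 17 alternatives, and that of RPL35A in 8. With quantile normalization RPL18 had -0.26 (adjusted p = 0.132). The log2 FC of RPL36AL was -0.25, of RPS12 -0.19 and of RPL4 -0.52, and none of these was called (adjusted p = 0.323, 0.399 and 0.309). The RPS13 probe gave 0.06.

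The size of this fall differed between the animals. Rabbits 1 and 2 had median differences over the 12 genes of -0.93 and -0.45, and rabbits 4 and 5 had -0.17 and -0.30. Leaving out rabbit 1 or rabbit 2 lowered the count of 8 to 1, leaving out rabbit 4 lowered it to 3 and leaving out rabbit 5 to 5, with fewer arrays in the test. The median was -0.31 without rabbit 1 and -0.49 without rabbit 2, so the values shrank in the first case and not in the second. The count was 3 when the mock array of rabbit 1 at T4 alone was left out. Within the 3 slides, with 1 or 2 arrays a side, the median was -0.24, -0.82 and -0.45. With slide as a block 6 genes were called. Over the same interval the summed level of 9 monocyte markers, given as their mean log2 level, went from between 1.71 and 2.57 to between 3.18 and 4.13, and 6 of the 9 rose, among them CD14 (log2 FC 1.37, adjusted p = 0.00664). Of 4 neutrophil markers 2 rose, and their mean log2 level went from between 0.55 and 1.24 to between 1.25 and 2.13. Platelet markers fell with the ribosomal protein genes (2 of 3, median log2 FC -1.79), and their mean log2 level went from between 0.98 and 1.88 to between -1.09 and -0.27. In each mock group 1 of the 3 was well above background on no array. Of 9 T cell markers 2 fell (median log2 FC -0.42), with a mean log2 level of 0.53 to 0.95 at T4 and of 0.28 to 0.80 at T24. Of 6 B cell markers 1 rose, and PRF1 and the 3 erythrocyte markers were not called. Among all genes 7.42% were called higher and 5.13% lower. The part of cell composition in the fall of the ribosomal protein genes was not tested, and in these bulk samples fewer cells of a type and less RNA per cell cannot be told apart.

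After LPS stimulation at T4, no ribosomal protein gene was called by limma, in a comparison in which 1.02% of all genes were called (0.968% of all genes lower and 0.0553% higher). At an unadjusted p under 0.05 there were 2 of 12 (RPL4 and RPL14), both lower, where 13.9% of all genes were under it. The median log2 FC over the 12 genes was 0.05, and 0.06 over all genes. RPL4, a large subunit protein that lines part of the exit tunnel, had levels of 8.995, 8.61, 7.65 and 8.99 after LPS in rabbits 1, 2, 4 and 5, against 9.24, 9.40, 9.62 and 9.89 in mock-stimulated PBMCs. All LPS arrays were below all mock arrays, with rabbit 4 farthest down, and the log2 FC was -0.98 (SE 0.29, adjusted p = 0.0921).

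With the rabbit as a block, RPL4 was called lower (adjusted p = 0.0288), and no other of the 12 genes was called. The share of all genes called with this block was not computed, so the call cannot be set beside such a share. Without the LPS array of rabbit 4, whose signal was the dimmest of all, the log2 FC of RPL4 was -0.67 (adjusted p = 0.409). RPL14 was at 8.52, 8.27, 8.02 and 8.38 after LPS and at 8.74, 8.69, 8.68 and 8.96 in mock, a log2 FC of -0.47 (SE 0.17, adjusted p = 0.187) with no overlap. The LPS arrays lay below all mock arrays in these 2 of 12 genes and in 5.03% of all genes. The other 10 genes lay between -0.18 (RPL18) and 0.11 (RPL37A). Of 9 monocyte markers 2 fell (median log2 FC -0.73), among them CD14 (-1.55), where 1.02% of all genes were called. No marker of the other cell type lists was called. The part of cell composition in these levels was not tested.

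At T24 of LPS stimulation, again none of the 12 genes was called by limma, against 1.22% of all genes (0.643% higher and 0.581% lower), and 4 of 12 had an unadjusted p under 0.05, all lower, where 10.9% of all genes had one. The median log2 FC was -0.26, while that over all genes was -0.03, and 10 of the 12 values were negative. The median was -0.14 with quantile normalization, -0.13 with normexp before it and -0.36 without rabbit 5. RPL35A had the most negative log2 FC (-0.39, SE 0.16, adjusted p = 0.352), from levels of 10.39, 10.47, 10.94 and 10.72 in mock-stimulated PBMCs to 9.77, 10.30, 10.27 and 10.63 after LPS. It was lower in 4 of 4 rabbits, as were RPL23 and RPL18, but in each of these genes the groups overlapped. By rabbit, the median over the 12 genes was -0.35, -0.19, -0.45 and 0.01 in rabbits 1, 2, 4 and 5. Within slides it was -0.65 in slide 1, 0.13 in slide 2 and -0.17 in slide 3. No slide held LPS and mock arrays of the same rabbit at T24, and each side had 1 or 2 arrays. Slide medians therefore hold differences between rabbits as well. RPL4 had a log2 FC of 0.12. Of 9 monocyte markers 1 fell, and of 4 neutrophil markers 1 rose and 2 fell. No marker of the other cell type lists was called, and the part of cell composition was not tested.

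The change of the LPS effect between the times was tested as an interaction, in which 1.95% of all genes were called (1.71% in the positive and 0.239% in the negative direction) and no ribosomal protein gene was, with 2 of 12 at an unadjusted p under 0.05, where 16.3% of all genes were. RPL4 had an interaction of 1.10 (SE 0.40, adjusted p = 0.163) and was positive in 4 of 4 rabbits. The other gene, RPL35A, had -0.49 (SE 0.23, adjusted p = 0.286) and was negative in 4 of 4. Of the 12 values 9 were negative, with a median of -0.26, and the median over all genes was -0.11. With quantile normalization both medians were -0.04, and with normexp before it they were -0.05 and -0.03. Without the mock array of rabbit 5 at T24, the value of RPL4 was 1.35 (adjusted p = 0.0483). That array carried the highest RPL4 level of its group, at 9.77.

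PMA-Ionomycin at T4 changed 22.8% of all genes (13.5% higher and 9.35% lower), and no ribosomal protein gene was among them, with 0 of 12 also at an unadjusted p under 0.05 in limma, where 30.3% of all genes were. All 12 log2 FC were positive, from 0.15 (RPL35A) to 0.55 (RPL4). Their median was 0.23, and that over all genes was 0.05. This depended on the scaling, since the median was 0.05 with quantile normalization, where RPL36AL and RPS13 were below 0. RPLP1 had levels of 12.03, 11.96, 11.97 and 11.88 after PMA-Ionomycin and 11.88, 11.77, 11.77 and 11.45 in mock-stimulated PBMCs, a log2 FC of 0.24 (SE 0.12, adjusted p = 0.19). It was 1 of 9 genes that were higher in 4 of 4 rabbits, and the groups overlapped for all 12, where all PMA-Ionomycin arrays were above all mock arrays in 12.2% of all genes. RPL36AL had a log2 FC of 0.26 (adjusted p = 0.229) and RPS25 of 0.23 (adjusted p = 0.376).

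At T24 of PMA-Ionomycin stimulation, 9 of 12 ribosomal protein genes were higher than in mock-stimulated PBMCs of the same time and none was lower. This was 75% of the members, where 22.1% of all genes were called higher in this comparison, 11.5% lower and 33.6% in either direction. The median log2 FC over the 12 genes was 0.82, and that over all genes 0.03. All 4 PMA-Ionomycin arrays lay above all 4 mock arrays in 9 of 12 genes, the same as those called, and in 21.2% of all genes. The 4 mock arrays at T24 enter this comparison and that of mock over time, so both rest on them.

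RPS25 rose most. Its levels were 10.95, 10.98, 10.84 and 10.76 in rabbits 1, 2, 4 and 5 after PMA-Ionomycin, against 9.28, 9.48, 9.82 and 9.73 in mock-stimulated PBMCs. The log2 FC was 1.30 (SE 0.16, FC 2.47, adjusted p = 3.92e-07). The spread within the PMA-Ionomycin group was small (10.88 ± 0.10, SD, n = 4), and the mock arrays of rabbits 1 and 2 were lower than those of rabbits 4 and 5.

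RPL36AL, a large subunit protein, was at 9.54, 9.65, 9.25 and 9.28 against 8.13, 8.47, 8.53 and 8.21 in mock (log2 FC 1.09, SE 0.14, FC 2.14, adjusted p = 1.01e-06). RPL18 was at 11.18, 11.09, 11.06 and 10.96 against 9.72, 9.92, 10.26 and 10.10 (log2 FC 1.07, SE 0.13, adjusted p = 6.84e-07). Both were higher after PMA-Ionomycin in every rabbit, by least in rabbit 4 for both. RPL14 was at 9.19, 9.03, 9.13 and 9.33 against 7.86, 7.97, 8.25 and 8.56 (log2 FC 1.01, SE 0.17, adjusted p = 4.73e-05). RPL14 was not called with quantile normalization (log2 FC 0.475, adjusted p = 0.0778) or with normexp before it (0.4765, adjusted p = 0.0789). RPLP1 was at 12.12, 12.02, 11.99 and 11.95 against 10.88, 11.03, 11.42 and 10.99 (log2 FC 0.94, SE 0.12, adjusted p = 1.28e-06). With the median signal, these 5 genes had the largest rises among the 12.

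RPL37A, a zinc-binding protein of the large subunit, rose by 0.87 (SE 0.14, adjusted p = 3.53e-05). RPL23 rose by 0.76 (SE 0.14, adjusted p = 0.000145), from 10.69 ± 0.26 to 11.45 ± 0.12 (SD, n = 4 each). RPL35A rose by 0.65 (SE 0.16, adjusted p = 0.00242) and RPS20, a protein of the small subunit head, by 0.55 (SE 0.12, adjusted p = 0.000516). Without rabbit 2, RPL35A had 0.52 and was not called by limma (adjusted p = 0.0554). Of the large subunit, 7 of 8 measured genes rose, and of the small subunit 2 of 4. The difference between the subunits was not tested.

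The other 3 genes were not called. RPS12 had levels of 11.44, 11.51, 11.57 and 11.57 after PMA-Ionomycin against 11.15, 11.21, 11.55 and 11.20 in mock, and its log2 FC was 0.25 (SE 0.12, adjusted p = 0.141). It was higher in 4 of 4 rabbits, although in rabbit 4 the values nearly met. RPL4 was at 9.19, 8.86, 9.22 and 9.35 against 8.68, 8.82, 8.82 and 9.77, with a log2 FC of 0.13 (SE 0.29, adjusted p = 0.839). The mock array of rabbit 5 was above all PMA-Ionomycin arrays, and the standard error of RPL4 was the largest among the 12 genes. The RPS13 probe, which is opposite to its mRNA, gave -0.09 (adjusted p = 0.839).

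**Figure D2:**
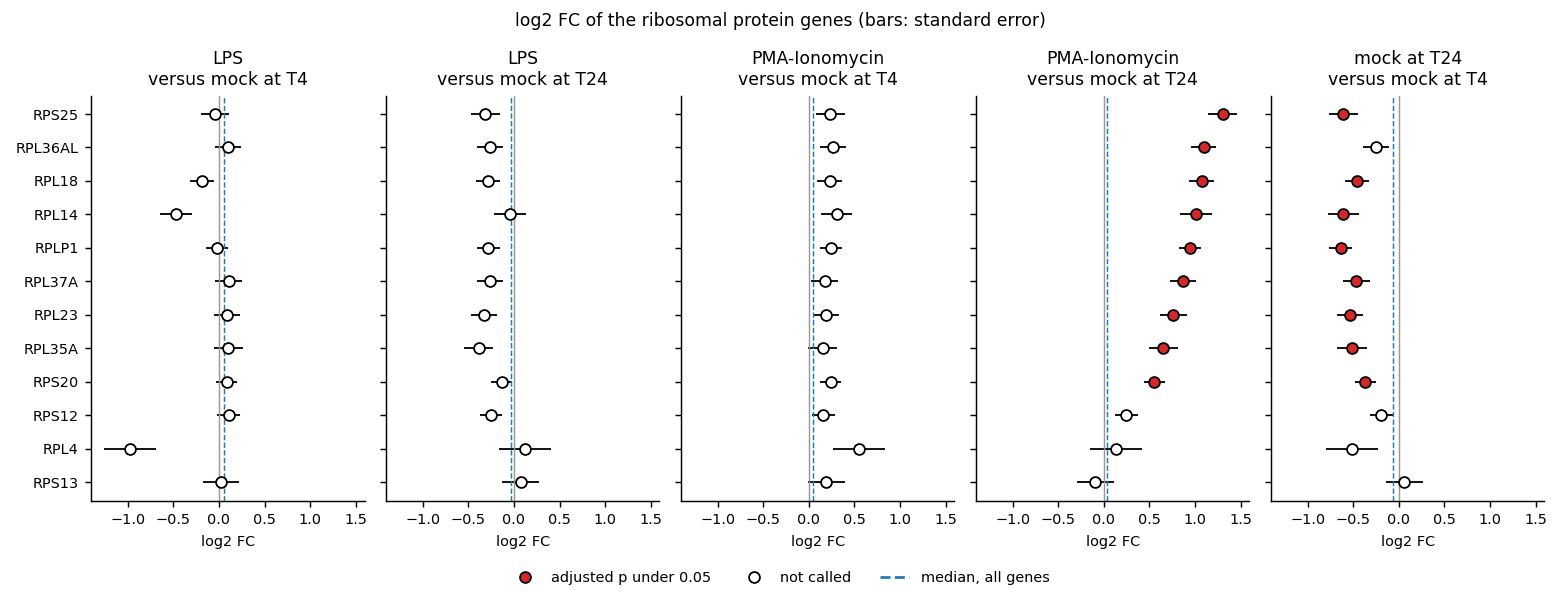
log2 FC (horizontal axis) of each ribosomal protein gene in 5 comparisons, with the standard error from limma as a bar and filled points for an adjusted p under 0.05. The dashed line is the median over all genes. Filled points are found for PMA-Ionomycin at T24 (9 genes, all to the right) and for mock at T24 against T4 (8 genes, all to the left).

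The size of the rise depended on the rabbit and on the scaling more than its direction did. Rabbits 1 and 2 had median differences over the 12 genes of 1.09 and 1.03, and rabbits 4 and 5 had 0.48 and 0.66. Within the 3 slides the median was 0.65, 1.16 and 0.77, from 1 or 2 arrays a side and never the same rabbit in both groups. With slide as a block 9 genes were called. With the processed signal, in which the median over all genes was -0.26 in place of 0.03, the count was 6, and RPL23 (log2 FC 0.44 in place of 0.76), RPL35A (0.35 in place of 0.65) and RPS20 (0.24 in place of 0.55) were not called. The median of the 12 genes was 0.48 in place of 0.82, and it then exceeded that of all genes by 0.74, and by 0.78 with the median signal. Among all genes called, 65.8% were higher with the median signal centred on the array median and between 46.3 and 52.9% under the other 4 scalings. The 9 genes were called also without the mock array of rabbit 5 at T24.

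Other measured quantities moved with this rise. The mean log2 level of 9 monocyte markers was between 1.32 and 1.76 in the PMA-Ionomycin group at T24, against 3.18 to 4.13 in the mock group, and 8 of the 9 fell, with a log2 FC of -3.27 for CD14 and -4.81 for CYBB. Of these markers, 2 were well above background on no array of the PMA-Ionomycin group. Of 6 B cell markers 3 fell and 1 rose, and of 4 neutrophil markers 2 fell, where 33.6% of all genes were called. PRF1, the 1 measured gene of the NK cell list, rose, and a single gene does not show the share of a cell type. Of 9 T cell markers 2 fell and 1 rose, a share near that of all genes. Platelet markers were not called (0 of 3), and 1 of 3 erythrocyte markers fell. The difference between the 3′ and 5′ probes of 604 other transcripts, a measure of RNA integrity chosen after seeing the data and centred over the arrays, was 0.0573 to 0.110 on the 4 PMA-Ionomycin arrays at T24 and -0.102 to 0.0347 on the mock arrays. The part of these in the levels of the ribosomal protein genes was not tested.

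The increase over time of the PMA-Ionomycin effect was tested as an interaction. It was positive and called for 7 of 12 genes, where 14.4% of all genes were called in that direction, 8.16% in the other and 22.5% in either. These were RPS25 (1.07, SE 0.22, adjusted p = 0.000806), RPL18 (0.85, SE 0.19, adjusted p = 0.0017), RPL36AL (0.83, SE 0.20, adjusted p = 0.00293), RPL14 (0.70, SE 0.24, adjusted p = 0.0391), RPLP1 (0.70, SE 0.17, adjusted p = 0.0042), RPL37A (0.70, adjusted p = 0.0146) and RPL23 (0.57, adjusted p = 0.0435). RPL35A and RPS20 had positive values that were not called (0.50 and 0.31, adjusted p = 0.133 and 0.214), of which RPS20 was called with quantile normalization (0.54, adjusted p = 0.00455) and with normexp before it (0.52, adjusted p = 0.00292), and RPL4 had -0.42 (adjusted p = 0.594). The median over the 12 genes was 0.64, and -0.02 over all genes. In the same interaction 5 of 9 monocyte markers were called negative (median -1.84), and so were 2 of 4 neutrophil markers. Of 9 T cell markers 1 was negative, and of 3 erythrocyte markers 1. Of 3 platelet markers 2 were positive (median 1.66), as was PRF1, and of 6 B cell markers 1 was positive and 1 negative. Their part in the interaction of the ribosomal protein genes was not tested.

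The value rests on 4 groups, among them the mock arrays of both times. In RPS25, the mean went from 10.19 to 9.58 in mock and from 10.42 to 10.88 after PMA-Ionomycin. In RPL35A, it went from 11.15 to 10.63 in mock and from 11.30 to 11.28 after PMA-Ionomycin, so that the mock arrays moved and the PMA-Ionomycin arrays hardly did. Among the 7 called genes, 3 moved in this way. RPLP1 went from 11.72 to 11.08 in mock and from 11.96 to 12.02 after PMA-Ionomycin, RPL14 from 8.77 to 8.16 and from 9.07 to 9.17, and RPL23 from 11.22 to 10.69 and from 11.41 to 11.45. In the other 4, the mean after PMA-Ionomycin was higher at T24 as well, going from 8.84 to 9.43 in RPL36AL (mock 8.58 and 8.33), from 10.69 to 11.07 in RPL18 (mock 10.46 and 9.9995) and from 11.21 to 11.44 in RPL37A (mock 11.04 and 10.58), beside RPS25. The count of 7 was 3 without rabbit 1, where the value of RPL23 shrank to 0.41, and 3 without rabbit 2, where that of RPL23 was 0.53 and that of RPL37A 0.67. It was 1 with the processed signal, where RPS25 alone was called (adjusted p = 0.019). Of 17 alternatives, RPL23 lost its call in 9 and RPL14 in 8, both of them with the deposited log2 table, and RPL14 had 0.41 with quantile normalization (adjusted p = 0.364).

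The 4 genes with several probes allowed a look at single probes, which overlap within a gene and are not independent. The 5 upstream probes of RPS25, which end before the stop codon, gave log2 differences from 1.34 to 1.38 for PMA-Ionomycin at T24, and the 5 downstream probes, which read across it, gave 1.15 to 1.32. For mock at T24 against T4 the ranges were -0.62 to -0.60 upstream and -0.62 to -0.61 downstream. For LPS at T4 the upstream and downstream probes had opposite signs, with -0.14 to -0.06 upstream and 0.01 to 0.04 downstream. The 3 probes of RPL23 gave 0.72 to 0.79 for PMA-Ionomycin at T24, the 5 of RPS20 0.46 to 0.63 and the 5 of RPS12 0.17 to 0.37. The ranges of RPL23 and RPS12 did not overlap.

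**Figure D3:**
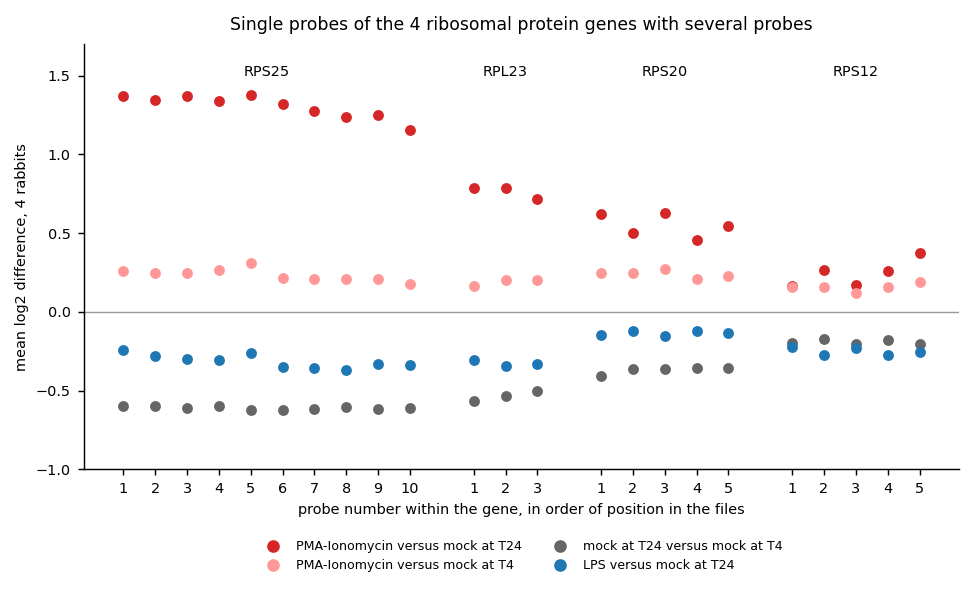
Mean log2 difference over 4 rabbits (vertical axis) for each single probe of RPS25, RPL23, RPS20 and RPS12, in 4 comparisons. Probes of a gene overlap in sequence and are numbered by position. For PMA-Ionomycin at T24 the probes of RPS25 lie between 1.15 and 1.38 and those of RPS12 between 0.17 and 0.37.

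Some probes outside the rule share at least 25 bases with a member on the same strand. For PMA-Ionomycin at T24, the probe that shares 59 bases with RPS20 gave a log2 difference of 0.58, that sharing 50 bases with RPL37A gave 0.81, that sharing 40 with RPL36AL gave 1.08 and that sharing 35 with RPS25 gave 1.29. The members themselves had 0.55 (RPS20), 0.87 (RPL37A), 1.09 (RPL36AL) and 1.30 (RPS25). Probes that share bases in this way may read the same transcript and are not independent of the members. The 5 probes of a further transcript, which share 27 bases with the RPS13 probe, gave -0.0805 to -0.0023, where the RPS13 probe gave -0.09. A probe opposite to RPLP1 over 50 bases gave -0.25, and one opposite to RPL4 over 52 bases gave 0.25.

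Genes that act with the ribosomal proteins were described from lists. FAU, whose product is cleaved to the small subunit protein eS30, had a log2 FC of 0.07 for PMA-Ionomycin at T4 (adjusted p = 0.769) and 0.24 at T24 (adjusted p = 0.217). Of 10 measured genes with TOP mRNAs outside the ribosome, 7 rose at T4 and 8 at T24, with medians of 0.72 and 1.46, where 13.5 and 22.1% of all genes were called higher. EEF1B2, a subunit of the elongation factor that reloads eEF1A with GTP, had a log2 FC of 1.65 at T24 (adjusted p = 1.44e-08), and NPM1, a nucleolar chaperone, of 2.10 (adjusted p = 4.05e-09). EIF4B, which assists the helicase of initiation, was called at T4 (log2 FC 0.81) and not at T24 (0.19, adjusted p = 0.584).

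The ribosome assembly list holds factors that build the subunits and chaperones of ribosomal proteins. All 12 measured genes of this list rose both at T4 (median 1.74) and at T24 (median 1.94), against 13.5 and 22.1% of all genes called higher. Among them were RRP12 (log2 FC 2.74 at T4 and 2.09 at T24), NOP56 (2.57 and 2.05) and NOP58 (1.59 and 2.62), which act in the nucleolus on the rRNA, and GRWD1 (1.42 and 1.27), a chaperone of a large subunit protein. An interaction with time was called for 1 of the 12, where 22.5% of all genes had one. Of 8 measured genes that control ribosomal protein genes or their mRNAs, 2 rose and 1 fell at T4, where 22.8% of all genes were called in either direction, and 2 fell at T24, where 33.6% were. LARP1, which binds the TOP tract, and TSC1 rose at T4 (0.78 and 0.63), and PDCD4 fell at both times (-1.20 and -1.17), as did EIF4EBP2 at T24 (-0.34). MTOR had a log2 FC of -0.18 and 0.37 (not called). Cell type markers moved as well in PMA-Ionomycin at T4. Of 9 monocyte markers 4 fell, of 6 B cell markers 3 fell and 1 rose, of 3 platelet markers 2 fell (median log2 FC -1.60), PRF1 and 1 of 4 neutrophil markers fell, and 1 of 9 T cell markers rose, where 22.8% of all genes were called. The mean log2 level was 1.10 to 1.55 for the monocyte markers and 2.09 to 2.74 for the B cell markers, against 1.71 to 2.57 and 3.36 to 4.31 in mock. Their part in the levels of these lists was not tested. None of the measured genes of the TOP, assembly and control lists was called after LPS at either time, where 1.02% (T4) and 1.22% (T24) of all genes were.

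The mitochondrial ribosomal proteins build the separate ribosome of the mitochondrion. Of 36 measured genes, 14 rose and 2 fell for PMA-Ionomycin at T4 (median log2 FC 0.34), and 29 rose and none fell at T24 (median 1.26), where 13.5 and 22.1% of all genes were called higher. In mock at T24 against T4, 3 rose and none fell, near the 7.42% of all genes called higher, with a median of 0.07, where the median of the cytosolic genes was -0.49. A difference between these gene lists was not tested.

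**Figure D4:**
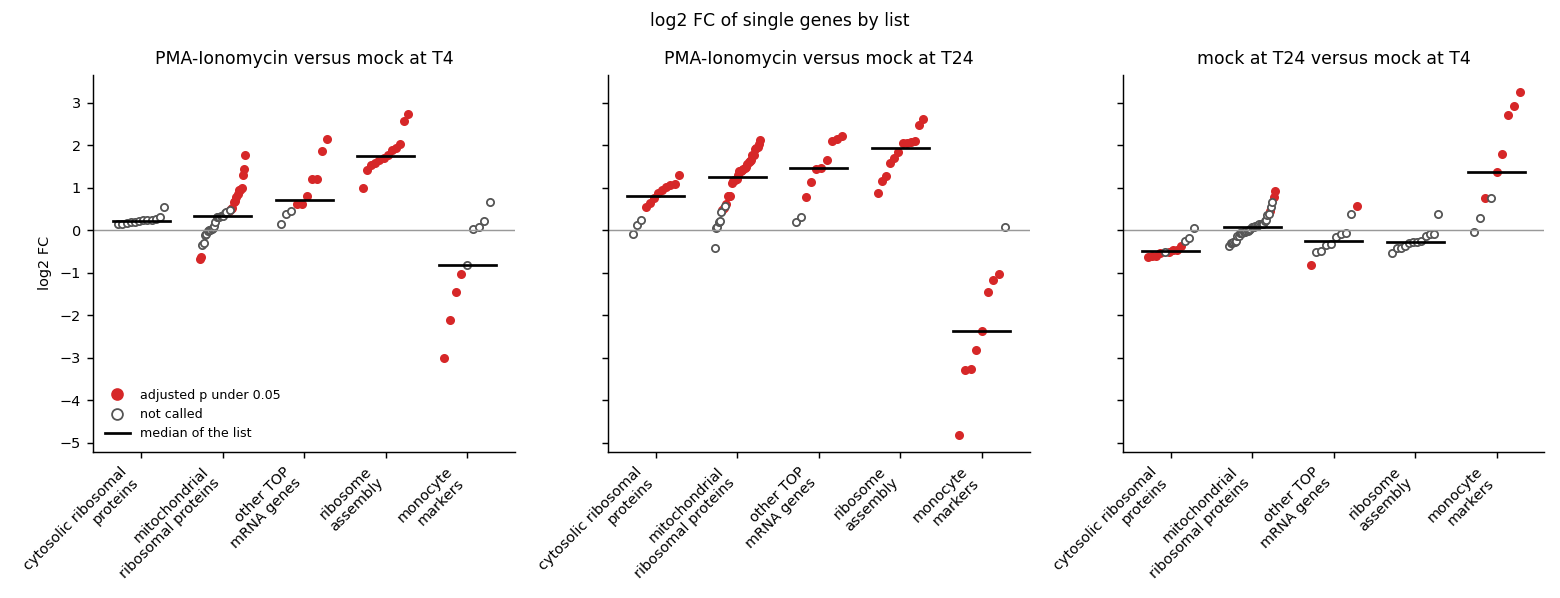
log2 FC (vertical axis) of single genes in 5 lists for PMA-Ionomycin at T4 and T24 and for mock at T24 against T4, with filled points for an adjusted p under 0.05 and a line at the list's median. The medians of the cytosolic ribosomal proteins are 0.23, 0.82 and -0.49, and those of ribosome assembly genes 1.74, 1.94 and -0.28.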

How the data were processed

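The authors deposited the scanner output of 24 one-colour arrays, made with Agilent Feature Extraction 10.7.3.1 according to the submitters' processing notes, in which the median signal is a spot intensity without background correction or scaling between arrays. A second table deposited by them holds log2 values, which were found to be the log2 of that intensity after subtraction of each array's own mean.

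Following the study's statistical methods, log2 median signals were centred on each array's median and averaged over the probes of a gene. Added here, the median was taken over spots that are not controls, and spots marked as outliers (280 to 370 per array) were left out. Probes were named by RefSeq accession, gene number or gene name with RefSeq's rabbit genes (mOryCun1.1), and no coordinates were taken from that assembly. Groups came from the sample labels. A mean per group was fitted with limma 3.58.1 (R 4.3.3, with version 1.17.8 of data.table) over all 24 arrays and 28920 genes, with Benjamini-Hochberg adjustment over all genes and a threshold of 0.05. Python 3.11.15 with numpy 2.4.6, pandas 2.3.3 and matplotlib 3.10.9 handled annotation and figures. The limma step was tested on simulated data. The 4 rabbits per group limit the precision.

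The ribosomal protein genes, the gene lists and the alternatives were chosen with earlier results of these data known. Genes named were, per comparison, the 5 largest rises and falls among called members with 1 direction in 4 of 4 rabbits (a condition not set for interactions), with a list of classical members and paralog pairs, of which RPLP1 and RPL36AL were measured. RPL4, RPL37A, RPS12, RPS13 and RPS20 were named after their values were seen, so that the other members are accounted for. A further measured gene that meets the rule is not reported here, and counts and shares of the members leave it out.

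Rabbit numbers mark the same animals. The deviations of arrays from their group's mean correlated with a median r of 0.229 within rabbits (60 pairs) and -0.0757 between rabbits (180 pairs). The methods use no pairing, so the replicate block was an alternative. Others were the deposited log2 table, quantile normalization, normexp (offset 50) before quantile normalization, the processed signal with the 75th percentile of each array as its centre, no dim probes, outlier spots kept, the brightest probe of a gene, only the arrays compared, slide as a block, eBayes with trend and robust, and leaving out each rabbit. Leaving out 4 single arrays was chosen after seeing the data. Promoters were not analysed here.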

Additional observations from a re-analysis of the deposited data

Results flagged for a closer look

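The PMA-Ionomycin effect differed between T4 and T24 by the interaction term for 7 genes, with log2 differences of 1.07 (RPS25), 0.85 (RPL18), 0.83 (RPL36AL), 0.70 (RPL14), 0.70 (RPLP1), 0.70 (RPL37A) and 0.57 (RPL23). Among 72 groups of 4 arrays, 6 held an array far from the other 3, where chance gives about 1 in 20. In the mock group at T24, rabbit 5 was high for RPL4 (9.77, the next array 8.82, gap 0.87 of the range), and rabbit 4 for RPS12 (11.55, next 11.21, gap 0.836). In the mock group at T4, rabbit 1 was high for RPL23 (11.48, next 11.14, gap 0.956) and RPL37A (11.36, next 10.96, gap 0.854). Rabbit 4 was low for RPL35A after PMA-Ionomycin at T4 (11.15, next 11.33, gap 0.861) and high for the RPS13 probe after LPS at T24 (4.22, next 3.84, gap 0.902).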

How the results depend on the processing

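For PMA-Ionomycin at T24, 6 to 9 genes were called under all alternatives, and none for PMA-Ionomycin at T4 or LPS at T24 under any. For LPS at T4 the replicate block gave 1 gene in place of 0, and it changed no other call. The 7 genes of the PMA-Ionomycin interaction were 1 with the processed signal, 3 to 7 when a rabbit was left out and 5 to 7 when 1 mock array was. The 8 genes of mock at T24 against T4 were 4 with quantile normalization, 4 with normexp and quantile normalization, 3 with only the arrays of the comparison, 1 to 5 when a rabbit was left out, and 3 or 6 when 1 mock array was. Without the mock array of rabbit 5 at T24, the LPS interaction gave 1 gene in place of 0. The causes of these changes were not tested. Where a rabbit or an array was left out, or only the compared arrays were used, the test also had fewer arrays. No called gene changed sign under any alternative. The median of the 12 genes minus that of all genes ranged from 0.61 to 0.84 for PMA-Ionomycin at T24 and from -0.53 to -0.26 for mock over time. Among all genes called, the share called higher was 59% for PMA-Ionomycin at T4 (47% with the processed signal), 63.8% for its interaction (52.7%), 59.1% for mock over time (49%), 5.4% for LPS at T4 (up to 25.7% with normexp) and 87.7% for its interaction (68.8% with the processed signal). Signal was well above background for all members on all 24 arrays.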
